A study of Mus musculus with 6 samples.

Results

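The miRNAs described here are those best known from red blood cells, namely mmu-miR-451a, mmu-miR-144-3p and mmu-miR-144-5p, and the arms mmu-miR-486a-5p, mmu-miR-486a-3p, mmu-miR-486b-5p and mmu-miR-486b-3p. They were taken by name from the deposited count table. Of the 7 names, 6 have a row among the 1364 miRNAs listed, and miR-486b-5p was not analysed here. The mouse prefix mmu is left out from here on. The comparison asks whether the level of these miRNAs, read as a sign of residual blood, differed between the libraries of the saline and morphine groups.

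Small RNA was sequenced from the nucleus accumbens (NAc), a brain region of the reward circuit, of adult male C57BL/6N mice aged 7 to 8 weeks. The saline group received saline and the morphine group 10 mg/kg morphine over 6 days of conditioned place preference (CPP) training, in which a drug is paired with a compartment, and NAc tissue was taken 0.5 h after the test on day 7. Each group had 3 libraries, and the series' design text gives 2 mice per library while a figure legend of the study gives 1. Whether the vessels were flushed of blood before dissection is not given in the sources used here.

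miR-144 and miR-451a are made from a common primary transcript that the erythroid transcription factor GATA1 switches on as red cell precursors mature. miR-144 is cut by DICER like most miRNAs. miR-451a is an exception, because its hairpin is too short for DICER and is cut by the Argonaute protein AGO2 instead. miR-486 is made from the Ank1 gene, which encodes a membrane skeleton protein of red cells, and is abundant in red cells and also in muscle. Circulating red cells carry much miR-451a, so this miRNA is widely used as a sign of blood or of lysed red cells in a sample. The cells that the reads came from were not measured here. In bulk tissue, fewer cells of a type and less RNA per cell cannot be told apart.

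The hairpin genes of miR-144 and miR-451a lie 99 bases apart on the plus strand of chromosome 11 (GRCm38). Mir144 spans chr11:78073005-78073070 and Mir451a spans chr11:78073170-78073241, and no protein-coding gene of the GENCODE vM21 annotation overlaps either. The gene Mir451b is annotated over the same bases as Mir451a on the minus strand, and miR-451b is not listed in the count table. The RefSeq sequences of these hairpins and their mature products (GRCm38.p6), which 3 of the 6 members matched, show how differently the products sit in their hairpins. In the hairpins the mature products are in capitals.
Mir144 hairpin: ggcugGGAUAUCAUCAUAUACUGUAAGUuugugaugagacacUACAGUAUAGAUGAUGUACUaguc
Mir451a hairpin: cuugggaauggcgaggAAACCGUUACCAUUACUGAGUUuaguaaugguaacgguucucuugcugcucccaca
The products of miR-144 lie on separate arms, at bases 6 to 28 and 43 to 62, whereas the single product of miR-451a lies at bases 17 to 38 and runs into the loop. In the mature sequences the seed, bases 2 to 8, is in capitals.
mmu-miR-451a: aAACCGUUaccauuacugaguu
mmu-miR-144-3p: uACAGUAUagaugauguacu
mmu-miR-144-5p: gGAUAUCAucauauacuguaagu
The 3 seeds differ from each other, and no other listed miRNA with a RefSeq sequence has any of them. GC content was 36.4% in miR-451a, 30.0% in miR-144-3p and 30.4% in miR-144-5p. The miR-486 genes lie on chromosome 8 within Ank1, with Mir486 at chr8:23142555-23142682 on the plus strand and Mir3107, the gene of miR-486b, at chr8:23142573-23142662 on the minus strand. They overlap no annotated exon of Ank1.

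The total count was between 4183333 and 9842050 per library, and levels are given in CPM, the read count relative to the TMM-scaled library total. A count of 3 corresponds to 0.315 to 0.549 CPM. Groups were compared by the quasi-likelihood test of edgeR over all 1364 miRNAs, and differentially expressed miRNAs were called by the study's thresholds, which ask for |log2 fold change| ≥ 0.58 together with unadjusted p ≤ 0.05. With these thresholds 264 miRNAs were called, which is 19.4% of those tested, with 9.68% higher and 9.68% lower in the morphine group. Saline replicate 2 stands apart from the other saline libraries: without it 492 of 1328 miRNAs were called, or 37.0%, with 20.9% higher and 16.1% lower. An adjusted p under 0.05 was then reached by 29.1%. Results are therefore also given without that library. As a sign of brain tissue 7 neuronal miRNAs were read, all detected. Their summed level was 163703 to 303203 CPM in the saline and 213853 to 249953 CPM in the morphine libraries. This sum cannot tell the NAc from other brain regions. As the sources differ on how many mice stand behind a library, p-values refer to the spread between libraries.

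miR-451a was higher in every morphine library than in every saline library, by 2.97-fold in the fitted model. Its level was 75.6, 163 and 60.2 CPM in saline replicates 1, 2 and 3 (99.5 ± 55.2, SD, n = 3). In morphine replicates 1, 2 and 3 it was 423, 218 and 243 CPM (295 ± 112, SD, n = 3). Morphine replicate 1 was the highest library of all, and saline replicate 2 was the nearest saline library to the morphine group. These levels rest on 413, 1084 and 574 reads in the saline and 3828, 1489 and 1550 reads in the morphine libraries, so counting error is small beside the spread between libraries. The miRNA ranked 187 to 228 by level in the saline libraries and 125 to 154 in the morphine libraries.

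The log2 fold change of miR-451a was 1.57 (SE 0.51, unadjusted p = 0.00604, edgeR adjusted p = 0.0698 after Benjamini-Hochberg), so it met the study's thresholds and missed an adjusted p under 0.05. Over its 15 alternatives the adjusted p ranged from 4.37e-11 to 0.346. Leaving out saline replicate 2 gave 2.12, and without morphine replicate 1 it was 1.32. Correction of each library for GC content gave 0.75, at which the thresholds were not met. Among all miRNAs, 22.1% had groups that did not overlap, 12.2% with every morphine library above every saline library and 9.90% with every one below. Scaling by library totals gave a log2 fold change of 1.37, while the median of all miRNAs moved from -0.15 to -0.40. The values as scaled to library totals were 98.7, 130 and 79.6 CPM in the saline and 389, 204 and 205 CPM in the morphine libraries, and these groups did not overlap either.

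**Figure D1:**
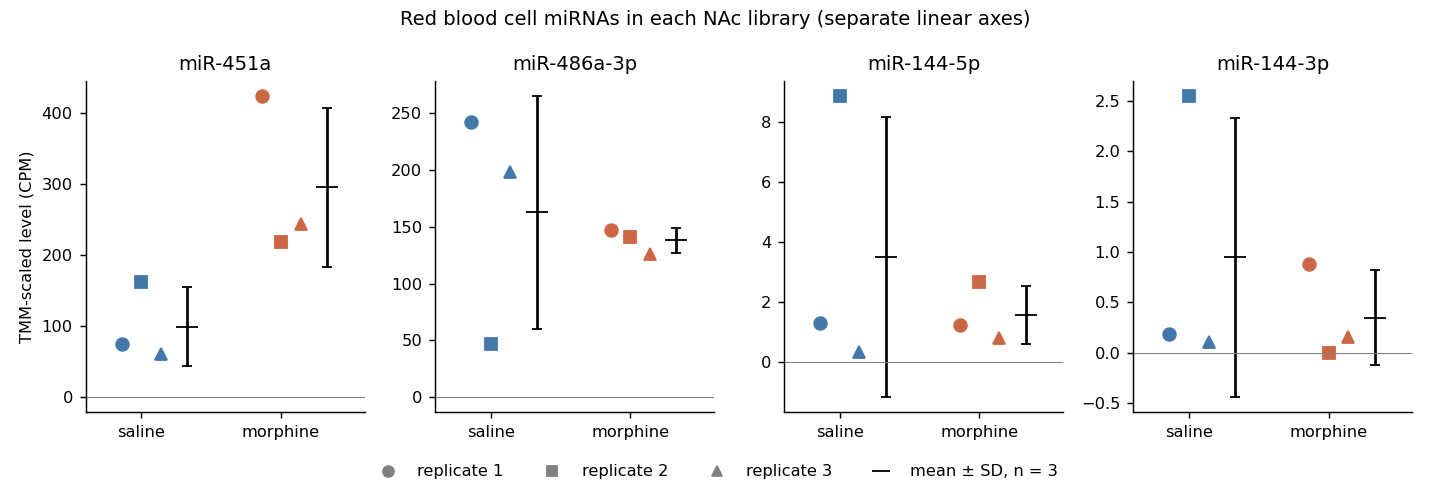
TMM-scaled level in CPM of miR-451a, miR-486a-3p, miR-144-5p and miR-144-3p in each library, on separate linear axes, with the replicates as circles, squares and triangles and the mean ± SD (n = 3) as a bar. Only for miR-451a do all morphine libraries (218 to 423 CPM) lie above all saline libraries (60.2 to 163 CPM), and saline replicate 2 is the highest library for both miR-144 arms and the lowest for miR-486a-3p.

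miR-144, the partner of miR-451a in the same transcript, gave no detectable difference. The 5p arm was counted 7, 59 and 3 times in saline replicates 1, 2 and 3 and 11, 18 and 5 times in morphine replicates 1, 2 and 3. Saline replicate 2 held 85.5% of the saline reads of this arm and was the highest library, at 8.85 CPM, while the other libraries lay between 0.315 and 2.64 CPM. The log2 fold change was -1.16 (SE 0.89, edgeR adjusted p = 0.522), with a 95% interval from -2.91 to 0.60. Without saline replicate 2 it was 1.07 (edgeR adjusted p = 0.329), so the direction turns on that library. Without saline replicate 3 it was -1.59 with an unadjusted p of 0.0441 by edgeR, which met the study's thresholds.

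The 3p arm of miR-144 was close to the detection limit. It was counted 1, 17 and 1 times in the saline libraries and 8, 0 and 1 times in the morphine libraries. For a count of 1 the exact 95% Poisson interval runs from 0.0253 to 5.57 counts, and for the 17 reads of saline replicate 2 it runs from 9.90 to 27.2 counts. These intervals hold counting error alone, as PCR copies of a molecule are not independent reads. The log2 fold change was -1.31 (SE 1.28, edgeR adjusted p = 0.584), and 1.35 without saline replicate 2. Saline replicate 2 held 89.5% of the 19 saline reads, the morphine group had 9 reads, and no difference was detected. The 5p arm had more reads than the 3p arm in all 6 libraries.

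The miR-486 rows did not differ detectably between the groups either. miR-486a-3p was at 242, 47.1 and 198 CPM in saline replicates 1, 2 and 3 (162 ± 102, SD, n = 3) and at 147, 141 and 126 CPM in morphine replicates 1, 2 and 3 (138 ± 11, SD, n = 3). All morphine values lay between saline replicate 2 and the other saline libraries. The saline libraries spread 5.14-fold and the morphine libraries 1.17-fold. The log2 fold change was -0.24 (SE 0.54, edgeR adjusted p = 0.809), with a 95% interval from -1.29 to 0.82. Scaled by library totals it was -0.72 and by upper quartile -0.56, and neither met the study's thresholds. Without saline replicate 2 it was -0.67 (unadjusted p = 0.0162, edgeR adjusted p = 0.0546), which met the study's thresholds, and without saline replicate 1 it was 0.26.

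The 3 miR-486 rows carry nearly the same numbers. In saline replicate 1 miR-486a-3p, miR-486a-5p and miR-486b-3p had 1322, 1285 and 1277 reads, and in morphine replicate 1 they had 1329, 1323 and 1312. In every library the smallest of these rows had at least 0.898 times the reads of the largest. The genes of miR-486a and miR-486b overlap on opposite strands, and whether the authors' counting gave a read to 1 row or to several is not stated, so these rows are not independent values. The log2 fold change was -0.20 for both miR-486a-5p and miR-486b-3p (SE 0.54 for each). With saline replicate 2 left out both were -0.65 and met the study's thresholds.

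By the study's thresholds 1 of the 6 rows was called, or 16.7%, against 19.4% of all miRNAs. Counting the miR-486 locus as 1 row, it was 1 of 4, or 25%, against 260 of 1362 miRNAs. Under filterByExpr, which drops miRNAs with few counts, it was 1 of 5, against 186 of 594. A single called row does not set the members apart from the table. Without saline replicate 2, 4 of the 6 rows were called, or 66.7%, against 37.0% of all miRNAs, with miR-451a higher and the 3 miR-486 rows lower. As those 3 rows may hold the same reads, they are not 3 separate results. No row of the 6 reached an edgeR adjusted p under 0.05, against 5.21% of all miRNAs. The count of rows at an unadjusted p under 0.05 was 1. DESeq2 gave miR-451a an adjusted p of 0.0372, and with DESeq2 161 of 1334 miRNAs had an adjusted p under 0.05.

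**Figure D2:**
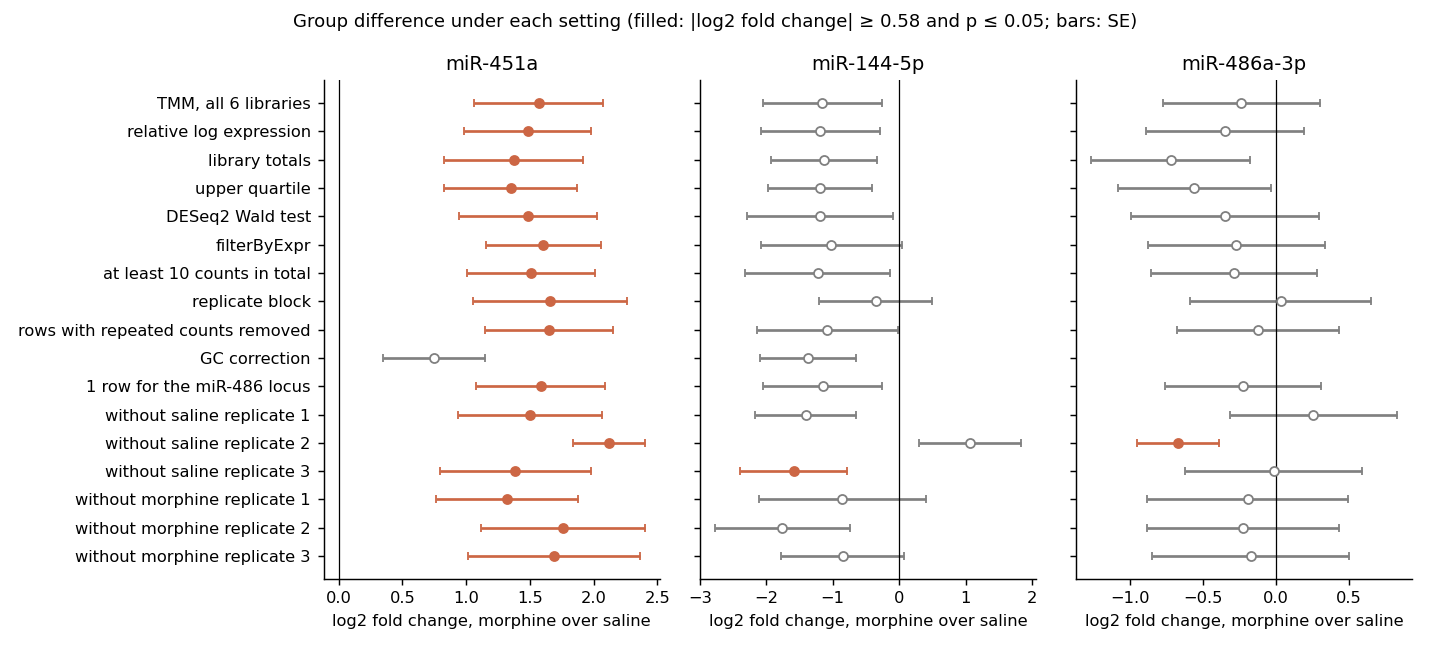
Log2 fold change of morphine over saline with its SE for miR-451a, miR-144-5p and miR-486a-3p under each scaling, filter, tool and left-out library, with filled points where the study's thresholds were met. miR-451a lies above 0 in every setting shown and is open only under the correction for GC content (0.75). miR-144-5p lies above 0 only without saline replicate 2 (1.07), and miR-486a-3p only without saline replicate 1 (0.26) and with the replicate block (0.032).

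Counts were also compared within each library, which needs no scaling between libraries. miR-23a-3p is a usual reference for red cell lysis, because red cells carry little of it. Which cells gave its reads in this tissue was not measured, so a ratio to it is not a measure of lysis here. miR-23a-3p gave a log2 fold change of -0.01 (SE 0.48, edgeR adjusted p = 0.998), although leaving out single libraries turned its sign. Its level was 167 to 189 CPM in the saline and 111 to 264 CPM in the morphine libraries. The count of miR-451a was 0.401, 0.971 and 0.344 times that of miR-23a-3p in saline replicates 1, 2 and 3. In morphine replicates 1, 2 and 3 it was 1.61, 1.97 and 1.58 times. The log2 ratio was thus higher in all morphine libraries, with a difference of 1.74 between the group means (exact two-sided permutation test, n = 3 per group, p = 0.1, adjusted over 3 ratios 0.15). This is the smallest p that 3 against 3 libraries allow. With miR-16-5p or miR-103-3p as the reference the difference was 1.75 or 1.83. Unlike miR-23a-3p, miR-16-5p is itself on the list of 13 miRNAs abundant in red cells that is read below.

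The members did not keep a constant ratio to each other. The count of miR-451a was 59.0, 18.4 and 191 times that of miR-144-5p in the saline libraries and 348, 82.7 and 310 times in the morphine libraries. The log2 ratio of miR-144-3p to miR-451a was lower in all morphine libraries, with group means of -7.55 in the saline and -10.12 in the morphine libraries (difference -2.58; exact two-sided permutation test, n = 3 per group, p = 0.1, adjusted 0.15). With 5 counts added in place of 0.5 the difference was -2.03. The value rests on the few miR-144-3p reads, among them 0 in morphine replicate 2.

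Against miR-486a-5p, the count of miR-451a was 0.321, 3.83 and 0.310 times as large in saline replicates 1, 2 and 3 and 2.89, 1.56 and 1.94 times as large in morphine replicates 1, 2 and 3. Saline replicate 2 thus lay above all the morphine libraries, and the groups overlapped. The log2 ratio of miR-486a-5p to miR-451a differed by -1.51 between the group means, which is within the spread of the saline libraries (SD 2.08, n = 3; exact two-sided permutation test, p = 0.4, adjusted 0.4). The difference was -2.71 without saline replicate 2. With miR-486 counted once, miR-451a made up 23.7%, 73.5% and 23.2% of the reads of all members in the saline and 74.0%, 60.3% and 65.8% in the morphine libraries. These reads were 0.0177% to 0.0417% of all counts in the saline and 0.0312% to 0.0526% in the morphine libraries, and these ranges overlapped.

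**Figure D3:**
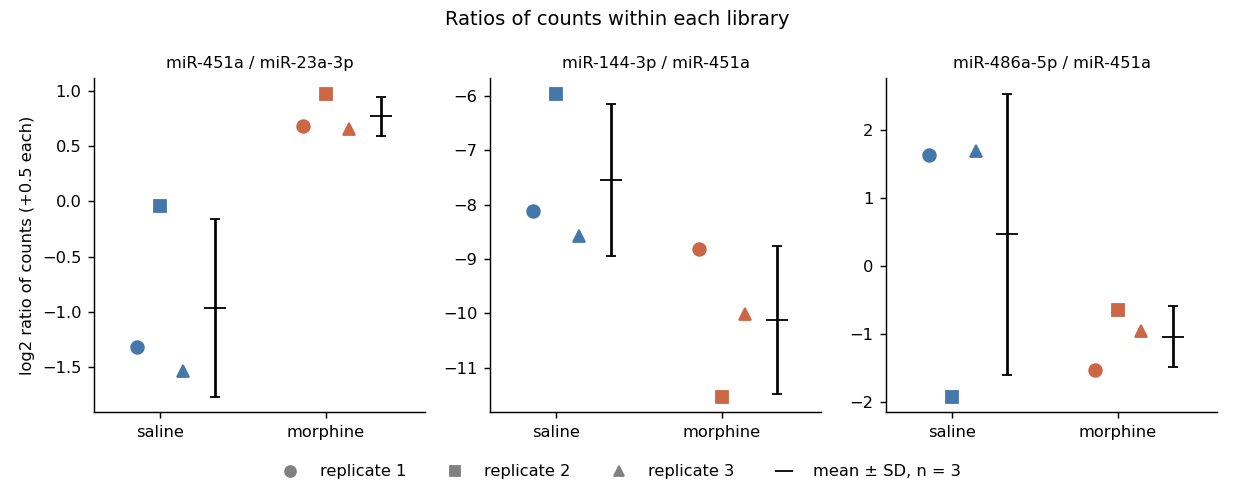
Log2 ratios of counts within each library, after adding 0.5 to each count, for miR-451a over miR-23a-3p, miR-144-3p over miR-451a and miR-486a-5p over miR-451a, with the mean ± SD (n = 3) as a bar. The groups are apart in the first and second panels and overlap in the third, where saline replicate 2 (-1.94) lies below all morphine libraries.

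Other miRNAs that are abundant in red cells, although also made in many tissues, moved in both directions. Of a list of 13, 2 were called higher and 2 lower by the study's thresholds, against 9.68% of all miRNAs in each direction. Under filterByExpr 2 were called higher and 2 lower, against 96 and 90 of 594 miRNAs. For the lists further below, too, the share of all miRNAs includes many with few counts. With edgeR 0 of these 13 had an adjusted p under 0.05 (4 had an unadjusted p under 0.05). The median log2 fold change was -0.01 against -0.15 over all miRNAs. miR-25-3p, of the miR-106b cluster within Mcm7, rose from 189 ± 65.9 to 468 ± 16.3 CPM (SD, n = 3), and its log2 fold change was 1.31 (SE 0.46). miR-93-5p of the same cluster fell from 269 ± 24.6 to 91.8 ± 27.2 CPM (SD, n = 3), and its log2 fold change was -1.55 (SE 0.47). miR-363-3p was called higher with 2.12 (SE 0.81) and miR-19b-3p lower with -3.04 (SE 0.87), but miR-19b-3p was at 44.1 CPM in saline replicate 2 and at 1.32 to 2.43 CPM in all other libraries, and its log2 fold change without that library was -0.02. miR-185-5p, the most abundant of the list, had 316, 2237 and 330 CPM in the saline and 708, 879 and 904 CPM in the morphine libraries (log2 fold change -0.21, SE 0.60), and 1.36 without saline replicate 2. The summed level of the list was 1746 to 4034 CPM in the saline and 2235 to 2690 CPM in the morphine libraries, with saline replicate 2 the highest. Without that library 5 of the 13 were called higher and 1 lower, against 20.9% and 16.1% of all miRNAs. Without morphine replicate 1 the counts were 1 and 1, against 105 and 71 of all 1321 miRNAs tested.

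**Figure D4:**
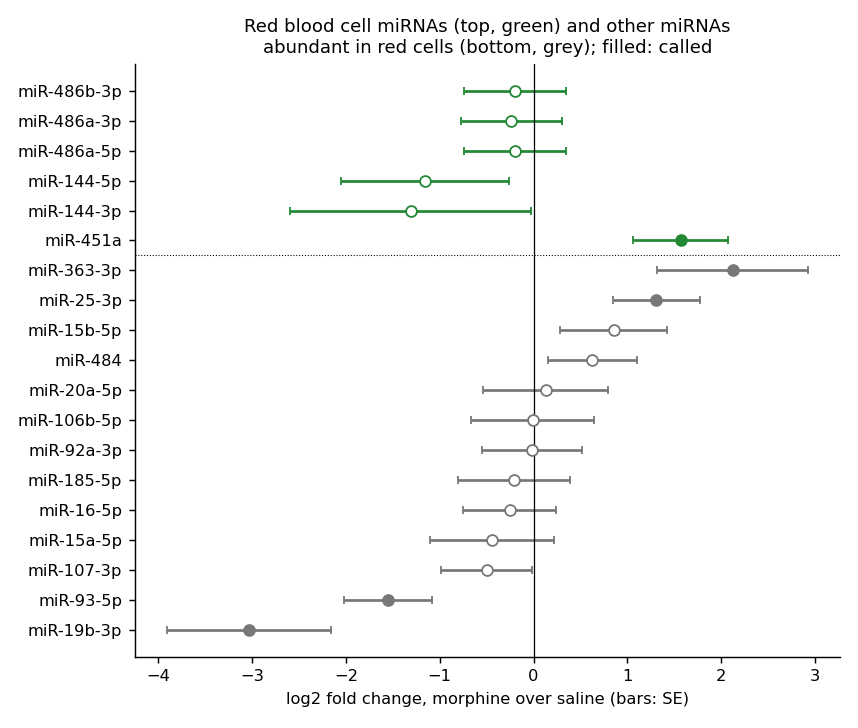
Log2 fold change of morphine over saline with its SE for the 6 red blood cell miRNA rows (green) and for 13 other miRNAs abundant in red cells (grey), with filled points where the study's thresholds were met. miR-451a (1.57) is the only filled green point, and the grey points lie on both sides of 0, from miR-19b-3p (-3.04) to miR-363-3p (2.12).

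Markers of white blood cells, vessel walls, muscle and plasma were read as further signs of what the tissue pieces held. Of 8 leukocyte miRNAs, most of which microglia also express, 1 was called higher and 1 lower, against 9.68% of all miRNAs in each direction. miR-150-5p, best known from lymphocytes, fell from 476 ± 283 to 117 ± 11.9 CPM (SD, n = 3), and its log2 fold change was -2.03 (SE 0.51, edgeR adjusted p = 0.0301). miR-146a-5p, induced by inflammatory signals, rose from 198 ± 49.8 to 966 ± 116 CPM (SD, n = 3), and its log2 fold change was 2.29 (SE 0.45, edgeR adjusted p = 0.00582). miR-223-3p, which neutrophils and platelets carry, was at 0.900 to 2.73 CPM in the saline and 0.628 to 4.65 CPM in the morphine libraries. The summed level of the list was 456 to 1002 CPM in the saline and 967 to 1187 CPM in the morphine libraries. With saline replicate 2 left out 1 was called higher and 2 lower, against 20.9% and 16.1% of all miRNAs.

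Of 6 vessel wall miRNAs, 2 were called higher, miR-126a-3p and miR-143-5p, and 0 lower, against 9.68% of all miRNAs in each direction. miR-126a-3p, the endothelial miRNA, was at 1610, 4685 and 1454 CPM in saline replicates 1, 2 and 3 and at 16168, 14482 and 10932 CPM in morphine replicates 1, 2 and 3. Its log2 fold change was 2.42 (SE 0.50, edgeR adjusted p = 0.00818), and its groups did not overlap, as for miR-451a. The other arm, miR-126a-5p, was at 22.9, 317 and 30.5 CPM in the saline and 96.2, 41.9 and 52.3 CPM in the morphine libraries. The groups of miR-126a-5p overlapped, and its log2 fold change was -0.96 (SE 0.71), and 1.25 without saline replicate 2. miR-143-5p gave a log2 fold change of 1.65 (SE 0.71). miR-143-3p, of smooth muscle and pericytes and the most abundant of the list in the saline libraries, had a log2 fold change of -0.47 (SE 0.51). The summed level was 8774 to 23976 CPM in the saline and 17052 to 30062 CPM in the morphine libraries. With saline replicate 2 left out, 4 were called higher and 1 lower, against 20.9% and 16.1% of all miRNAs. Without morphine replicate 1 only miR-126a-3p was called, while of all 1321 miRNAs tested 105 were called higher and 71 lower. The part of vessel content in the difference of miR-451a was not tested.

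As miR-486 is also a muscle miRNA, 5 muscle miRNAs were read beside it. miR-206-3p, of skeletal muscle, was called lower (log2 fold change -2.06, SE 0.63), with 71.6, 16.2 and 14.1 CPM in the saline and 5.31 to 10.7 CPM in the morphine libraries. miR-1a-3p, the most abundant, was at 185, 940.0 and 44.6 CPM in the saline and 424 to 526 CPM in the morphine libraries (log2 fold change 0.32, SE 0.67, and 2.09 without saline replicate 2). The call of miR-206-3p was lost without saline replicate 1 (-0.80) and without morphine replicate 1 (-1.76). The summed level was 76.0 to 997 CPM in the saline and 469 to 582 CPM in the morphine libraries. This sum was mostly miR-1a-3p, and it was highest in saline replicate 2, where miR-486 was lowest. miR-206-3p was instead highest in saline replicate 1, where miR-486a-3p was also highest (242 CPM). Without saline replicate 2, 2 of the 5 were called higher and 1 lower, against 20.9% and 16.1% of all miRNAs. miR-122-5p, a liver miRNA found in plasma, was at 9.70, 7.95 and 56.4 CPM in the saline and 5.18 to 5.75 CPM in the morphine libraries (log2 fold change -2.15, SE 0.67), and its counts equal those of miR-122b-3p in every library. Without saline replicate 3 its log2 fold change was -0.59 and the call was lost. Among the 7 neuronal miRNAs 1 was called higher and 2 lower, against 9.68% of all miRNAs in each direction. Without saline replicate 2 these counts were 3 and 2, against 20.9% and 16.1% of all miRNAs. miR-218-5p gave a log2 fold change of 1.53 (SE 0.49), miR-124-3p of -1.88 (SE 0.45) and miR-129-5p of -2.07 (SE 0.49), and the most abundant, miR-9-5p, of -0.15 (SE 0.51). The counts of miR-129-5p and miR-9-5p are almost those of miR-129b-3p and miR-9b-3p, listed for the opposite strand.

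The miRNAs whose pattern over the 6 libraries was most like that of miR-451a were neither members nor on the list of other red cell miRNAs. Likeness was measured as the root mean square difference of log2(CPM + 1), each miRNA centred on its own mean, among miRNAs whose counts summed to at least 60. The nearest was miR-194-5p, with a difference of 0.227 and levels of 41.9, 127 and 46.0 CPM in the saline and 221, 136 and 136 CPM in the morphine libraries. miR-199a-3p, a miRNA of mesenchymal cells, followed with 0.231, then miR-493-5p with 0.241, miR-381-3p with 0.270 and miR-7a-1-3p with 0.287. Among the 605 other miRNAs compared, miR-144-5p ranked 352 with a difference of 1.19, on 3 to 59 reads per library. miR-144-3p, with 19 reads in the saline and 9 in the morphine group, was below the minimum count and was not compared. The miR-486 rows ranked 451, 459 and 460, with differences of 1.42, 1.43 and 1.43.

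Base composition moved with the difference between the libraries. Mature sequences were matched for 1089 miRNAs, 85.0% of those with a miRBase name. Among the 51 of them with at least 60 counts and 35 to 40% GC, the range that holds miR-451a, the median deviation of log2(CPM + 1) from the mean of the 6 libraries was -1.07, 0.64 and -0.94 in saline replicates 1, 2 and 3 and 0.48, 0.31 and 0.40 in morphine replicates 1, 2 and 3. For miR-451a itself the deviations were -1.07, 0.02 and -1.40 in the saline and 1.40, 0.44 and 0.60 in the morphine libraries. Set against the medians of this GC range, miR-451a thus lay at the median in saline replicate 1, below it in saline replicates 2 and 3, and above it in all 3 morphine libraries, most in morphine replicate 1. In this GC range 16 of 51 miRNAs, or 31.4%, were called higher, against 18.2% of the 33 with under 35% GC, the range that holds both miR-144 arms, and 8.22% of the 146 with a GC content of 55% or more. Between these, 18.8% were called higher at 40 to 45% GC, 18.6% at 45 to 50% and 13.0% at 50 to 55%, so the share was not highest at the lowest GC content. With each library corrected for a trend with GC content, a setting chosen after seeing the data, the log2 fold change of miR-451a was 0.75 (SE 0.40, unadjusted p = 0.0629, edgeR adjusted p = 0.271) and no longer met the study's thresholds. For miR-144-5p it was then -1.38 (SE 0.72). The trend was fitted to deviations from the mean of all 6 libraries, so the correction also takes out any group difference that follows GC content. Among the 33 miRNAs with under 35% GC, the median deviations were -1.40, 1.19 and -1.51 in saline replicates 1, 2 and 3. For miR-144-5p the deviations were -0.27, 1.84 and -1.06 in these libraries. In morphine replicates 1, 2 and 3 the medians were 0.63, 0.37 and 0.43, and miR-144-5p was at -0.31, 0.41 and -0.62.

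**Figure D5:**
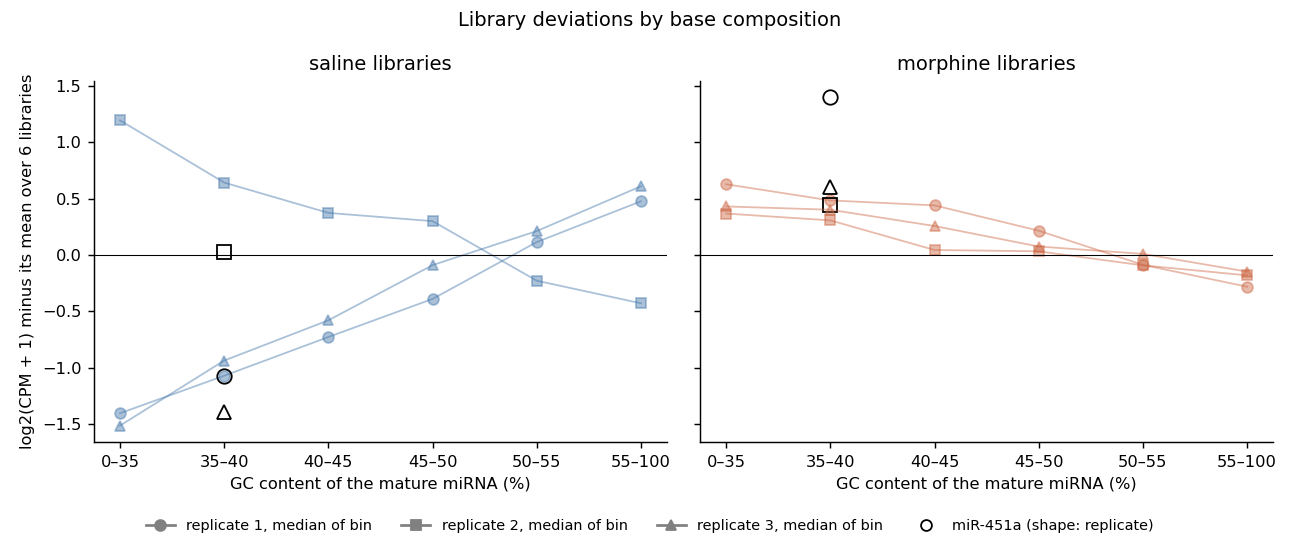
Median deviation of log2(CPM + 1) from its mean over the 6 libraries, for miRNAs grouped by GC content of the mature sequence in percent, with a line per library and the values of miR-451a as open black symbols of the same replicate shape. Saline replicates 1 and 3 rise with GC content and saline replicate 2 and the morphine libraries fall, and miR-451a lies at -1.40 to 0.02 in the saline and 0.44 to 1.40 in the morphine libraries.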

How the data were processed

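The authors removed reads with adapters, poly-N or low quality and reads outside 15 to 35 nt, used Bowtie to filter out rRNA, tRNA, small nuclear and nucleolar RNA and repeats, and compared the remainder with miRBase. They deposited raw read counts per miRNA, not pooled, and TPM values. In the deposited table TPM equals the count scaled to the library total, and no test used it. The counter, genome build and miRBase release are not given in the sources used here, and 0 columns were left unused. Groups and replicates come from the sample titles.

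All 1364 miRNAs were fitted with TMM and the quasi-likelihood test of edgeR 4.0.16 (R 4.3.3), with 6 libraries and no covariate. Standard errors came from the fitted model. Count ratios had 0.5 added to each count and were compared with exact permutation tests. The fits were tested on simulated data. The alternatives were scaling by relative log expression, by upper quartile or by library totals, DESeq2 1.42.0, filterByExpr, at least 10 counts, removal of repeated rows, the replicate block and leaving out each library. GC correction and 1 row for miR-486 were added after seeing the data. The sample titles do not say that libraries of the same replicate number are paired.

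The members and marker lists were chosen with earlier results of these data known. All members were named, with the called and the most abundant miRNA of each list and the 5 most like miR-451a. miR-23a-3p, miR-223-3p and miR-126a-5p were chosen beside this rule. Positions are from GENCODE vM21 (GRCm38) and sequences from RefSeq (GRCm38.p6), not from the authors' table.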

Additional observations from a re-analysis of the deposited data

How the results depend on the processing

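miR-451a kept its direction in all 15 alternatives and met the study's thresholds in 14, with log2 fold changes of 1.32 to 2.12 when single libraries were left out, and 0.75 under GC correction. The number of member rows called was 1 to 4 and the number at an adjusted p under 0.05 was 0 to 1 when single libraries were left out, and the latter was 1 with DESeq2. Marker list miRNAs called were 13, and 8 to 23 when libraries were left out, the lowest without morphine replicate 1 and the highest without saline replicate 2. Among all miRNAs 264 of 1364 were called, 176 of 1321 without morphine replicate 1 and 492 of 1328 without saline replicate 2. The differences of the log2 ratios ranged from 1.45 to 2.20, -3.23 to -1.78 and -2.71 to -0.90, in the order given above, when libraries were left out. Same-numbered libraries had deviations that correlated at -0.23, -0.28 and 0.14 over 899 miRNAs. These values cannot show whether such libraries were paired, as each group has 3 libraries and saline replicate 2 stands apart. With the replicate block, 179 miRNAs were called in place of 264, and miR-451a had a log2 fold change of 1.66 (adjusted p = 0.226 with edgeR). Under that block the signs turned for miR-486a-5p (0.092), miR-486a-3p (0.032), miR-486b-3p (0.088), miR-185-5p (0.48) and miR-9-5p (0.10), none of them called before or after. When single libraries were left out the log2 fold change ranged from -3.24 to 1.35 for miR-144-3p, -1.76 to 1.07 for miR-144-5p, -0.65 to 0.30 for miR-486a-5p, -0.67 to 0.26 for miR-486a-3p, -0.65 to 0.30 for miR-486b-3p, -0.88 to 0.086 for miR-143-3p, -0.52 to 1.36 for miR-185-5p, -0.11 to 2.09 for miR-1a-3p, -0.33 to 0.26 for miR-23a-3p and -0.36 to 0.65 for miR-9-5p. With repeated rows removed miR-23a-3p was at 0.088. The cause of these changes was not tested. Under filterByExpr miR-144-3p had no value, and under GC correction the miR-486 rows had none. When single libraries were left out, calls were also lost for miR-143-5p (1.35 without saline replicate 3 and 1.01 without morphine replicate 1), miR-363-3p (1.64 and 2.26 without the same libraries), miR-25-3p (1.28 without morphine replicate 3), miR-122-5p (-2.07 without morphine replicate 1) and miR-19b-3p (-3.12 without morphine replicate 1). Other settings also ended calls. miR-143-5p lost its call under DESeq2 (1.56), filterByExpr (1.69), the minimum of 10 counts (1.59), the replicate block (1.79) and removal of repeated rows (1.72), miR-25-3p under library totals (0.88), and miR-122-5p (-1.51) and miR-19b-3p (-1.31) under the replicate block. miR-194-5p lost its call in 8 of 14 alternatives. Of the members miR-144-3p had the fewest reads, with at most 17 in any library.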
